A study of Mus musculus with 18 samples.

Results

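The genes described here encode 10 proteins of the basement membrane: the laminin chains Lama1, Lamb1 and Lamc1, the collagen IV chains Col4a1 and Col4a2, the nidogens Nid1 and Nid2, the heparan sulfate proteoglycans Hspg2 (perlecan) and Agrn (agrin), and the collagen-binding glycoprotein Sparc. They were taken by symbol from the table of levels, where each had 1 probe set, and are 10 of 19938 genes measured. F9 is a mouse embryonal carcinoma line, a tumour-derived stem cell that differentiates when given retinoic acid. Cells received all-trans retinoic acid (ATRA, 1 µM), which activates all retinoic acid receptors (RARs), or an agonist that the series describes as specific for RARγ (BMS961, 0.1 µM), RARα (BMS753, 1 µM) or RARβ (BMS641, 1 µM), and 1 array was made of each at 2, 6, 24 and 48 h. Their reference was ethanol vehicle at 48 h, on 2 arrays, so that there were 18 arrays in all. BMS961 was used at a lower dose than the other ligands, and its values stand beside theirs without a matched dose. Arrays at 2, 6 and 24 h also differed from vehicle in time since treatment began.

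A basement membrane is a thin sheet of matrix beneath epithelia, built on a network of laminin and a network of collagen IV. A laminin molecule is a trimer of an α, a β and a γ chain, and Lama1, Lamb1 and Lamc1 encode the chains of the laminin found in the earliest embryonic basement membranes. A collagen IV molecule of the common type winds together α1 and α2 chains, which Col4a1 and Col4a2 encode. Nidogens and perlecan link these networks. In the rodent embryo, parietal endoderm secretes a very thick basement membrane called Reichert's membrane, and F9 cells given retinoic acid are known for making endoderm that secretes the same components.

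Levels are log2 values after RMA, the normalization used for this array type, so a difference of 1 is a 2-fold difference. A level can be compared between arrays for a gene, but not between genes. Medians over all probe sets lay between 5.31 and 5.47 on the 18 arrays, and precision is limited by how few arrays there are. Markers of embryonal carcinoma averaged 11.56 and 11.32 over 8 genes on the vehicle arrays, among them Pou5f1 and Nanog. Across 12146 probe sets with no listed gene, the deviations of vehicle replicate 1 and the 4 ATRA arrays from the mean of all arrays had a mean correlation of 0.283 among themselves. That mean was 0.005 among the other 13 arrays and -0.185 across both sets. The labels name no batch, so these sets were found in the values. ATRA and the BMS compounds lie in different sets, so that set and ligand can be told apart through the vehicle pair alone. Values with the set as a block are therefore given beside those results. The vehicle arrays also stood apart for several of these genes: Col4a1 and Col4a2 were 1.20 and 1.14 higher on replicate 1 than on replicate 2, a gap that exceeded that of 98.1% and 97.8% of all genes. The gap was 0.83 for Agrn, 0.73 for Hspg2, 0.58 for Lamc1 and 0.57 for Nid1, against a median of 0.23 over all genes, while Lama1 (0.08) and Sparc (-0.01) hardly differed. Separate cultures are not named for the vehicle pair, whose spread may be technical.

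RefSeq promoter windows, from 250 bases before to 50 after the start of transcription in the mouse build GRCm38.p6, were found for 7 of the 10 genes. Windows of Lama1, Lamc1 and Nid2 were not used here. The windows of the collagen IV pair are shown because these genes share a promoter region, and that of Lamb1 because it is the laminin chain with a window. Col4a1 lies on the minus strand with its window at chr8:11312777-11313076, and Col4a2 on the plus strand at chr8:11312555-11312854. Their RefSeq start sites are 21 bases apart on opposite strands, and the windows overlap by 78 bases, shown in capitals in each gene's own orientation. The Lamb1 window lies on the plus strand at chr12:31265043-31265342, and its capitals mark 2 matches of GGGCGG on the other strand.
Col4a1: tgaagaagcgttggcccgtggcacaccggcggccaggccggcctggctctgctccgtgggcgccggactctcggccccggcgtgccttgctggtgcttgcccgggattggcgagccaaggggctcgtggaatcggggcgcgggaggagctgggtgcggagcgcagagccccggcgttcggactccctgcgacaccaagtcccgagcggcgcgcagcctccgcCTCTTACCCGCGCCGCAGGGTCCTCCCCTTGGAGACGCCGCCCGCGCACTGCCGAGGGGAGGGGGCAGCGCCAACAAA
Col4a2: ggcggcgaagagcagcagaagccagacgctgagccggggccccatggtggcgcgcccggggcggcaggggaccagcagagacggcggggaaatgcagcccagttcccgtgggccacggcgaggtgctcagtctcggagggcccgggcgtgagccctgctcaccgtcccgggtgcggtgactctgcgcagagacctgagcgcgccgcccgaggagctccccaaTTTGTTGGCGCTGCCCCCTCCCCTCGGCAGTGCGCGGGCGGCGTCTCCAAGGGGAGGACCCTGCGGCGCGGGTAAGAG
Lamb1: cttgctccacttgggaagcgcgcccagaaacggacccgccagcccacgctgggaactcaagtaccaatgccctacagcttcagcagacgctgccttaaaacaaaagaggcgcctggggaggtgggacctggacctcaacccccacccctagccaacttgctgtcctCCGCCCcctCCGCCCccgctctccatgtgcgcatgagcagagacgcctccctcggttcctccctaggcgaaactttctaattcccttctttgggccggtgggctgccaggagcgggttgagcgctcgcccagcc

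These windows are rich in G and C, at 74% for Col4a1, 73.7% for Col4a2 and 63.7% for Lamb1, against a median of 52.7% over 32851 windows. GGGCGG, the core letters of an Sp1 site, was searched on both strands. It was present 1 time in the Col4a1 window, 3 times in that of Col4a2 (1 of them within the overlap), 2 times in that of Lamb1, 1 time in that of Nid1 and 5 times in that of Hspg2. Agrn has 2 windows, with 2 and 12 matches, and Sparc had none; 35.66% of all windows held a match. CCAAT was found 1 time in each of the windows of Col4a1, Col4a2, Lamb1 and Nid1, and in 37.41% of all windows. None of these members' windows held TATAAA (13.62% of all windows), the GATA-type letters AGATAA (11.18%) or TGATAA (9.05%), or direct repeats of AGGTCA, the letters of a retinoid receptor site, spaced by 5 or by 2 bases (0.01% each). These are matches of letters and were not tested as binding sites.

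The first comparison asked when and with which ligand these genes departed from vehicle, and the main departure was on the 48 h arrays of ATRA and BMS961. At 48 h of ATRA all 10 genes lay above both vehicle arrays, as did 28.7% of all genes, and at 48 h of BMS961 7 of them did (37.5% of all genes). At 48 h of BMS753 5 lay above both (31.3% of all genes), and at 48 h of BMS641 1 did (30.9%). At 24 h, 1 gene was above both vehicle arrays with each of ATRA (35.6% of all genes), BMS961 (23.9%) and BMS641 (30.4%), and 2 were with BMS753 (29.5%). The arrays hold bulk RNA, in which more cells of a type and more RNA per cell cannot be told apart.

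**Figure D1:**
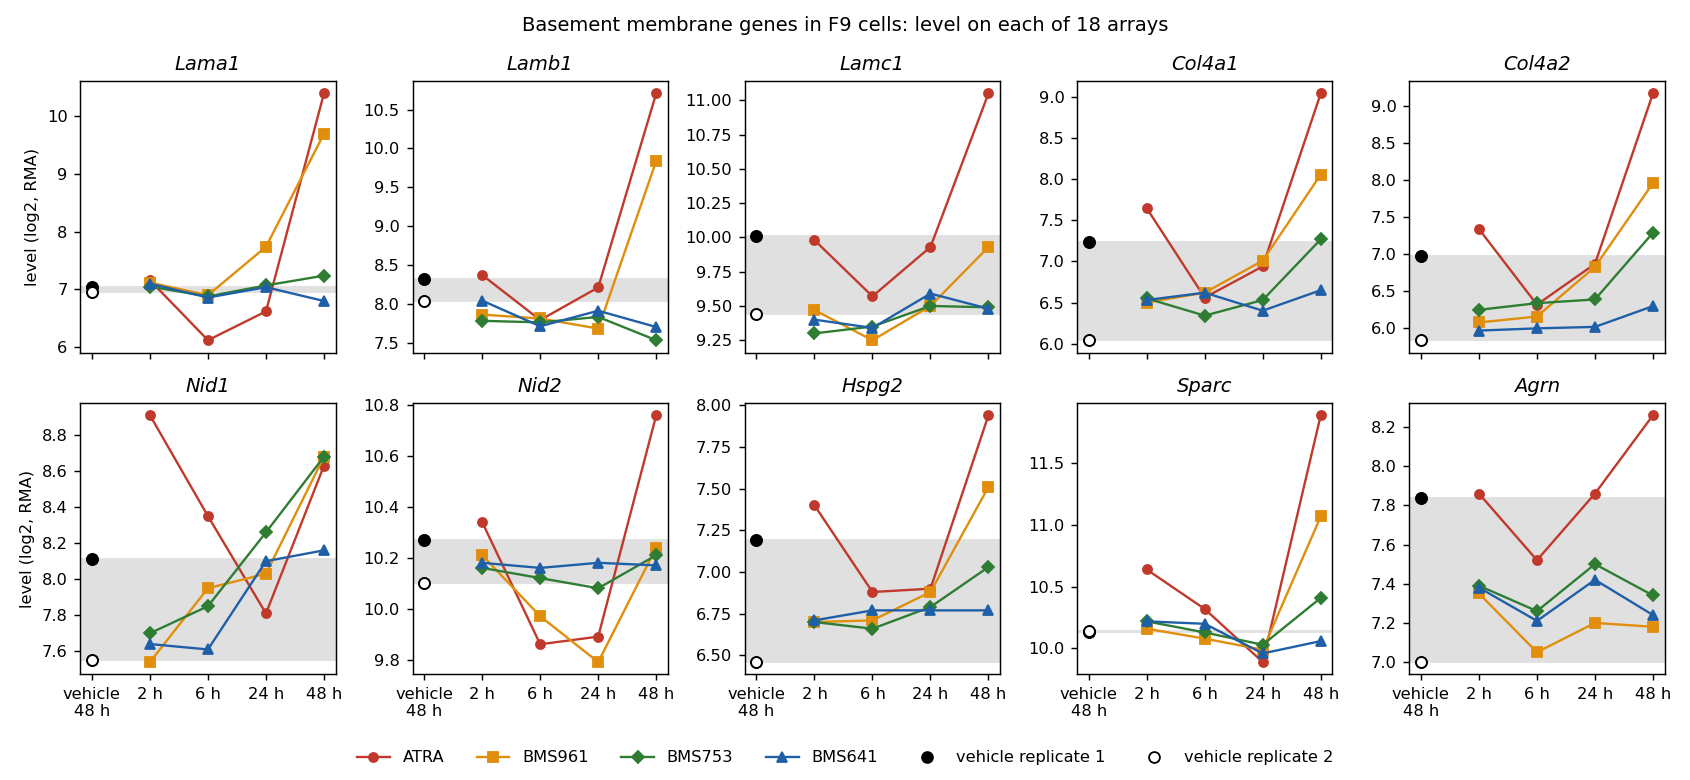
Level (log2, RMA) of each of the 10 genes on the 18 arrays, with the 2 vehicle arrays at the left of each panel and the range between them shaded; lines join the single arrays of a ligand from 2 to 48 h, and each panel has its own axis. All 10 genes lie above both vehicle arrays at 48 h of ATRA. Lama1, Lamb1, Col4a1, Col4a2 and Sparc lie well above both at 48 h of BMS961 too.

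Lama1, the α chain, had levels of 7.16, 6.12, 6.62 and 10.40 at 2, 6, 24 and 48 h of ATRA, and 7.12, 6.90, 7.74 and 9.70 at the same times of BMS961. It had 7.05, 6.88, 7.07 and 7.24 with BMS753, 7.10, 6.86, 7.04 and 6.80 with BMS641, and 7.04 and 6.96 on the vehicle arrays. The 48 h arrays of ATRA and BMS961 were thus the highest, and the 6 h and 24 h arrays of ATRA the lowest of all 18. BMS961 at 24 h came next, 0.85 above its own 6 h array. From 24 h to 48 h of ATRA the level was 3.78 higher (13.8-fold), the 9th largest such step of all genes, and with BMS961 it was 1.96 higher (3.89-fold), the 18th largest. These steps are between single arrays and have no test.

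Lamb1, the β chain, had 8.37, 7.79, 8.21 and 10.71 at 2, 6, 24 and 48 h of ATRA, and 7.86, 7.81, 7.68 and 9.84 with BMS961. It had 7.78, 7.76, 7.83 and 7.53 with BMS753, 8.04, 7.71, 7.91 and 7.70 with BMS641, and 8.32 and 8.03 on the vehicle arrays. Unlike Lama1, its BMS961 level at 24 h lay below both vehicle arrays, and its 48 h array alone lay above them. The step from 24 h to 48 h was 2.49 with ATRA (5.63-fold) and 2.16 with BMS961 (4.46-fold), the 10th largest of all genes for BMS961. At 48 h of BMS753 and BMS641, Lamb1 lay below both vehicle arrays, by 0.79 and 0.49 for BMS753 and by 0.62 and 0.32 for BMS641.

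Lamc1, the γ chain, had 9.98, 9.57, 9.93 and 11.05 at 2, 6, 24 and 48 h of ATRA, and 9.47, 9.25, 9.50 and 9.93 with BMS961. Its range was 9.30 to 9.50 with BMS753 and 9.34 to 9.59 with BMS641, and its vehicle arrays had 10.01 and 9.44. Only the 48 h array of ATRA lay above both vehicle arrays, and the BMS961 level at 48 h lay between them. The step from 24 h to 48 h was 1.12 with ATRA (2.17-fold) and 0.43 with BMS961 (1.35-fold). On the log2 scale its differences from vehicle were smaller than those of its partners with both ligands: at 48 h the change of Lama1 against the mean of vehicle exceeded that of Lamc1 by up to 2.50.

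Col4a1 had 7.65, 6.56, 6.94 and 9.05 at 2, 6, 24 and 48 h of ATRA, 6.50, 6.62, 7.01 and 8.06 with BMS961, and 6.55, 6.34, 6.53 and 7.27 with BMS753. With BMS641 it had 6.53, 6.62, 6.40 and 6.65, and on the vehicle arrays 7.24 and 6.04. The 48 h arrays of ATRA and BMS961 were the highest, followed by ATRA at 2 h and BMS753 at 48 h. The BMS753 level at 48 h was 0.03 above vehicle replicate 1 and 1.22 above replicate 2, so that it hardly passed the higher vehicle array.

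Col4a2 followed the same order, with 7.34, 6.32, 6.87 and 9.17 for ATRA, 6.08, 6.16, 6.83 and 7.96 for BMS961, and 6.25, 6.34, 6.39 and 7.29 for BMS753. It had 5.97, 6.00, 6.02 and 6.30 with BMS641, and 6.98 and 5.84 on the vehicle arrays. From 24 h to 48 h the pair was higher in every ligand: Col4a1 by 2.11, 1.05, 0.74 and 0.26, and Col4a2 by 2.30, 1.13, 0.90 and 0.28, in the order ATRA, BMS961, BMS753 and BMS641. With BMS753 the step of Col4a2 was the 13th largest of all genes and that of Col4a1 the 35th, whereas the BMS753 steps of Lama1, Lamb1 and Lamc1 were 0.17, -0.30 and -0.02.

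Nid1 did not share the course of these genes with ATRA. Nid2 was highest at 48 h of ATRA, with a smaller difference from vehicle than the laminin and collagen IV chains. Nid1 had 8.91, 8.35, 7.81 and 8.63 at 2, 6, 24 and 48 h of ATRA, so its highest level of all arrays was at 2 h. It had 7.54, 7.95, 8.03 and 8.68 with BMS961, 7.70, 7.85, 8.26 and 8.68 with BMS753, 7.64, 7.61, 8.10 and 8.16 with BMS641, and 8.11 and 7.55 on the vehicle arrays. At 48 h the levels of ATRA, BMS961 and BMS753 lay within 0.05 of each other. Nid2 had 10.34, 9.86, 9.89 and 10.76 with ATRA and 10.21, 9.97, 9.79 and 10.24 with BMS961. It stayed between 10.08 and 10.21 with BMS753 and between 10.16 and 10.18 with BMS641, against 10.27 and 10.10 on the vehicle arrays. For Nid2 only the 2 h and 48 h arrays of ATRA lay above both vehicle arrays.

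Hspg2 had 7.40, 6.88, 6.90 and 7.94 at 2, 6, 24 and 48 h of ATRA and 6.70, 6.71, 6.88 and 7.51 with BMS961. It lay between 6.66 and 7.03 with BMS753 and between 6.71 and 6.77 with BMS641, against 7.19 and 6.46 on the vehicle arrays. The 48 h array of BMS961 was 0.32 above the higher vehicle array, less than the 0.73 between the vehicle arrays. Agrn, which clusters receptors at the neuromuscular junction, had 7.86, 7.52, 7.86 and 8.26 with ATRA and 7.35, 7.05, 7.20 and 7.18 with BMS961. It lay between 7.26 and 7.50 with BMS753 and between 7.21 and 7.42 with BMS641, against 7.84 and 7.00 on the vehicle arrays. Every BMS array of Agrn lay between the vehicle arrays, and of the ATRA arrays those at 2, 24 and 48 h lay above them.

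Sparc had 10.64, 10.32, 9.89 and 11.89 at 2, 6, 24 and 48 h of ATRA, 10.16, 10.08, 9.99 and 11.07 with BMS961, and 10.22, 10.13, 10.03 and 10.41 with BMS753. It had 10.22, 10.20, 9.96 and 10.06 with BMS641, and its vehicle arrays, at 10.13 and 10.14, were nearly equal. All 4 ligands had a 24 h level below vehicle, and 3 of them a 48 h level above it. At 48 h the level was 3.39- and 3.37-fold that of vehicle replicates 1 and 2 with ATRA, 1.91- and 1.90-fold with BMS961, and 1.21- and 1.20-fold with BMS753.

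The ATRA arrays also differed among themselves before 48 h. At 2 h of ATRA 9 of the 10 genes lay above both vehicle arrays (27.0% of all genes), with Nid1 1.74- and 2.58-fold and Col4a1 1.33- and 3.04-fold above replicates 1 and 2. At 6 h all 10 were lower than at 2 h, by 0.32 for Sparc up to 1.09 for Col4a1, and the median step of the 10 was -0.54 against 0.02 over all genes. For Lama1, Col4a1 and Col4a2 this step (-1.04, -1.09 and -1.02) was among the largest drops of all genes: 99.86%, 99.89% and 99.83% of genes had an equal or higher one. With BMS961, BMS753 and BMS641 the median steps of the 10 genes from 2 h to 6 h were -0.06, -0.04 and -0.02. These are single arrays, and the part of the array itself in the ATRA values at 2 h and 6 h was not tested.

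**Figure D2:**
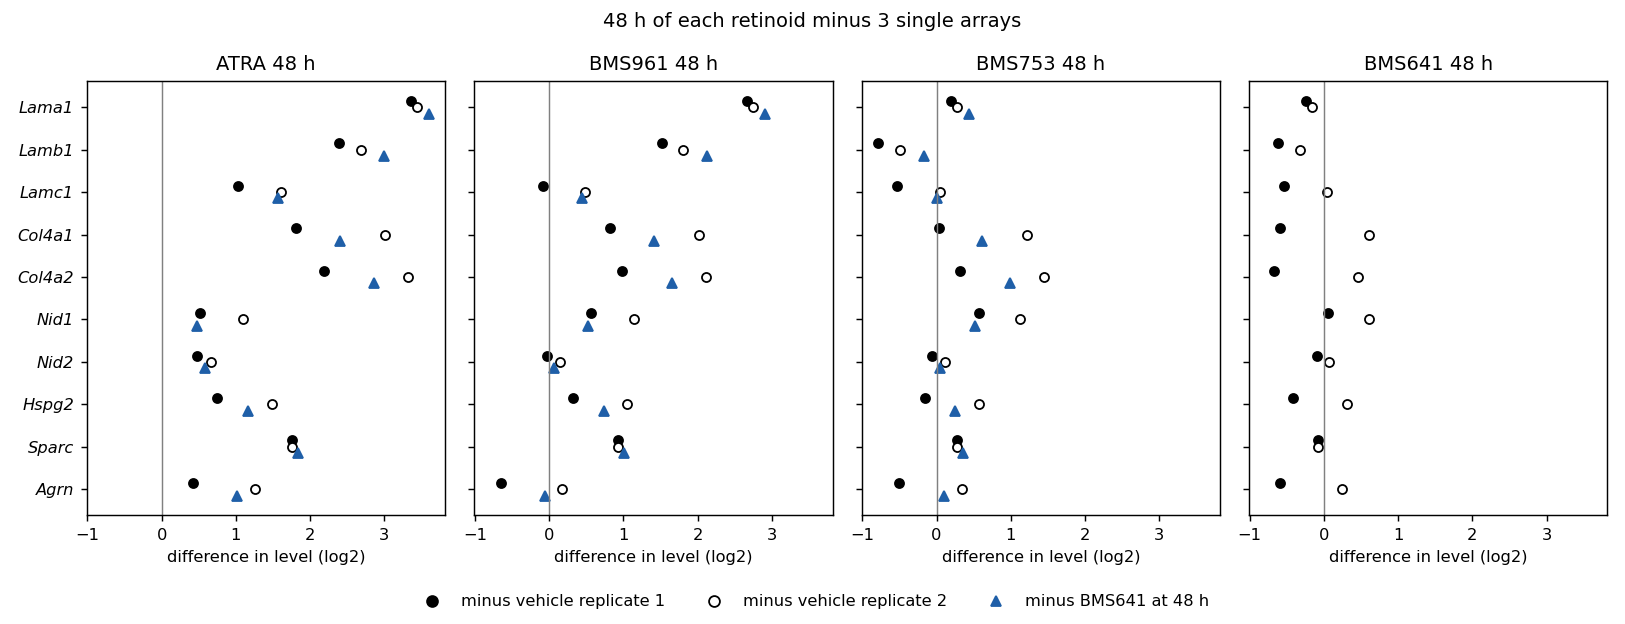
Difference in level (log2) of each gene on the 48 h array of a ligand from vehicle replicate 1 (filled circle), vehicle replicate 2 (open circle) and BMS641 at 48 h (triangle, not drawn for BMS641 itself); all 4 panels share an axis. Lama1, Lamb1, Col4a1, Col4a2 and Sparc stand well to the right of 0 for ATRA and BMS961 whichever array is subtracted. The circles of Col4a1 and Col4a2 lie over 1 unit apart.

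The planned fit, in limma, averaged each ligand's arrays at 24 h and 48 h (late) and those at 2 h and 6 h (early), and let the steps between these times be common to the ligands. Its p-values rest on the vehicle pair and on departures from the shared steps, not on repeated cultures. A gene was called at a Benjamini-Hochberg adjusted p under 0.05 over all genes. Against vehicle no member was called for late ATRA, where 3.31% of all genes were called higher and 1.4% lower. By unadjusted p under 0.05, 8 of the 10 were higher, as were 12.1% of all genes (7.64% lower). The estimates for late ATRA were 1.61 ± 0.44 (SE) for Col4a2 (limma adjusted p = 0.0614), 1.36 ± 0.44 for Col4a1 (adjusted p = 0.103), 1.51 ± 0.69 for Lama1 (adjusted p = 0.252) and 1.29 ± 0.56 for Lamb1 (adjusted p = 0.225). The median of the 10 genes was 0.76, against -0.02 over all genes. Without the ATRA array at 24 h 6 members were called, Lama1, Lamb1, Lamc1, Col4a1, Col4a2 and Sparc, and without vehicle replicate 1 there were 5, Lamc1, Col4a1, Col4a2, Hspg2 and Agrn. Without the ATRA array at 48 h the estimate of Lama1 was -0.07. Each of these fits leaves 1 array in a group, and without the ATRA array at 24 h late ATRA rests on the high 48 h array. For fits without an array, here and below, the share of all genes called was not kept. Their counts therefore have no background to be judged against.

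No member was called for BMS961 late against vehicle either (0.818% of all genes higher, 0.446% lower; by unadjusted p Lama1 and Col4a2 were higher, among 6.98% of all genes), nor for BMS753 (0.171% higher, 0.015% lower; by unadjusted p Nid1 was higher, among 6.09% of all genes). None was called for BMS641 late against vehicle, where 0% of genes was called in either direction and no member had an unadjusted p under 0.05 (3.27% of all genes higher and 1.32% lower at that p). Early arrays gave no call of a member for ATRA (0.853% of all genes higher, 0.396% lower), where Nid1 was the member higher by unadjusted p under 0.05 (5.1% of all genes), at 0.80 ± 0.24 (adjusted p = 0.191). Without vehicle replicate 1, Nid1 passed, at 1.08 (adjusted p = 0.0468). Early BMS961 (0.0351% higher, 0.00502% lower), BMS753 and BMS641 (0% each) gave no member at either p, where 4.67%, 3.22% and 5.06% of all genes were higher and 2.36%, 2.37% and 2.47% lower by unadjusted p. Late against a ligand's own early arrays also called no member, among 4.95% of genes higher and 2.32% lower for ATRA, 0.502% and 0.266% for BMS961, 0.00502% and 0% for BMS753, and 0% for BMS641. By unadjusted p these comparisons had 4 members higher for ATRA (13% of all genes), 4 for BMS961 (6.46%), 1 for BMS753 (Nid1; 4.37%) and none for BMS641 (0.702% of all genes higher, 1.25% lower). Without the ATRA array at 24 h, 5 members passed for ATRA late against early: Lama1, Lamb1, Lamc1, Col4a2 and Sparc.

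Because late averages 24 h and 48 h, and these genes differed from vehicle mainly at 48 h, a second fit kept each 48 h array as a group of its own and let the 2, 6 and 24 h arrays share their steps. It was chosen after seeing that the 48 h arrays were high, each 48 h group is 1 array, and the fit assumes that this array varies as the other groups do. Its estimates and p-values therefore describe the values that led to it and are no test of them; the planned fit called none of the 10 genes against vehicle. In the 48 h fit 7 of the 10 genes passed the same threshold at 48 h of ATRA against vehicle, where 6.77% of all genes were called higher and 2.12% lower. The estimate was 3.40 ± 0.28 for Lama1 (SE; 10.6-fold, limma adjusted p = 4.07e-05) and 2.53 ± 0.19 for Lamb1 (5.79-fold, adjusted p = 2.21e-05). Lamc1 was at 1.32 ± 0.21 (2.50-fold, adjusted p = 0.00243). The collagen IV chains were at 2.41 ± 0.44 for Col4a1 (5.32-fold, adjusted p = 0.00556) and 2.76 ± 0.43 for Col4a2 (6.76-fold, adjusted p = 0.00229). Sparc was 3.38-fold higher (adjusted p = 0.000108) and Hspg2 2.17-fold higher (adjusted p = 0.0238). The median of the 10 was 1.54, against -0.07 over all genes.

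The estimates that did not pass at 48 h of ATRA were 0.84 for Agrn (adjusted p = 0.0628), 0.57 for Nid2 (adjusted p = 0.0632) and 0.80 for Nid1 (95% interval -0.11 to 1.71). Without vehicle replicate 1, Agrn and Nid2 passed as well, at 1.26 and 0.66, and 9 genes passed. Without vehicle replicate 2, or with the array set as a block, which leaves ATRA against vehicle replicate 1, 6 passed: Hspg2 no longer passed, at 0.75 (adjusted p = 0.0724 with the block). With the block 5.31% of all genes were called higher and 1.55% lower. The estimate of Col4a1 was 3.01 (8.05-fold) without replicate 1 and 1.81 (3.51-fold) without replicate 2. That of Lama1 was 3.44 (10.9-fold) and 3.36 (10.3-fold). The Col4a1 value thus depended on the vehicle array, and that of Lama1 hardly moved.

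At 48 h of BMS961, 3 members passed against vehicle in this fit, where 0.983% of all genes were called higher and 0.286% lower, against none in the planned fit. They were Lama1 at 2.71 ± 0.28 (6.53-fold, adjusted p = 0.00136), Lamb1 at 1.67 ± 0.19 (3.17-fold, adjusted p = 0.00202) and Sparc at 0.93 ± 0.17 (1.90-fold, adjusted p = 0.0271). Of the others, the estimates were 1.55 for Col4a2 (adjusted p = 0.118) and 1.42 for Col4a1 (adjusted p = 0.166), and 0.21 for Lamc1 (95% interval -0.25 to 0.66). Without vehicle replicate 1, or with the array set as a block, which leaves BMS961 against vehicle replicate 2, 6 members passed, with Col4a1 at 2.02, Col4a2 at 2.12 and Hspg2 at 1.05 besides (2.67% of all genes higher and 1.43% lower with the block). Without vehicle replicate 2 the same 3 passed. No member was called at 48 h of BMS753 (0.00502% of all genes higher, 0% lower) or BMS641 (0% each). By unadjusted p Lamb1 was lower in both, at -0.64 for BMS753 (95% interval -1.06 to -0.22, adjusted p = 0.658), among 1.87% of all genes, and -0.47 for BMS641 (95% interval -0.89 to -0.05, adjusted p = 1.00), among 0.707%. For BMS753 the estimate of Col4a2 was 0.88, with a 95% interval from -0.06 to 1.83.

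In the same fit a ligand's 48 h array was also set against its own earlier arrays. These differences contain no vehicle array, but their SEs and p-values come from the residual that the vehicle pair feeds. With ATRA 7 members passed (6.11% of all genes higher, 1.89% lower): Lama1 at 3.77 ± 0.27 (adjusted p = 1.09e-05), Lamb1 at 2.58 ± 0.18, Lamc1 at 1.22 ± 0.20, Col4a1 at 2.00 ± 0.42, Col4a2 at 2.33 ± 0.41, Nid2 at 0.73 ± 0.16 (adjusted p = 0.0179) and Sparc at 1.61 ± 0.16. With BMS961 3 passed (0.446% higher, 0.0752% lower): Lama1 at 2.45, Lamb1 at 2.06 and Sparc at 0.99 (adjusted p = 0.00158, 0.000418 and 0.0212). These estimates did not move when the set was fitted as a block, but 9 members then passed for ATRA, with Hspg2 and Agrn besides (8.11% of all genes higher, 3.5% lower), and 5 for BMS961, with Col4a1 and Col4a2 besides (1.34% higher, 0.517% lower). None was called with BMS753 or BMS641 (0% of genes each); by unadjusted p Col4a2 was higher with BMS753, among 2.49% of all genes, and no member passed with BMS641 (0.537% of all genes higher, 0.476% lower).

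**Figure D3:**
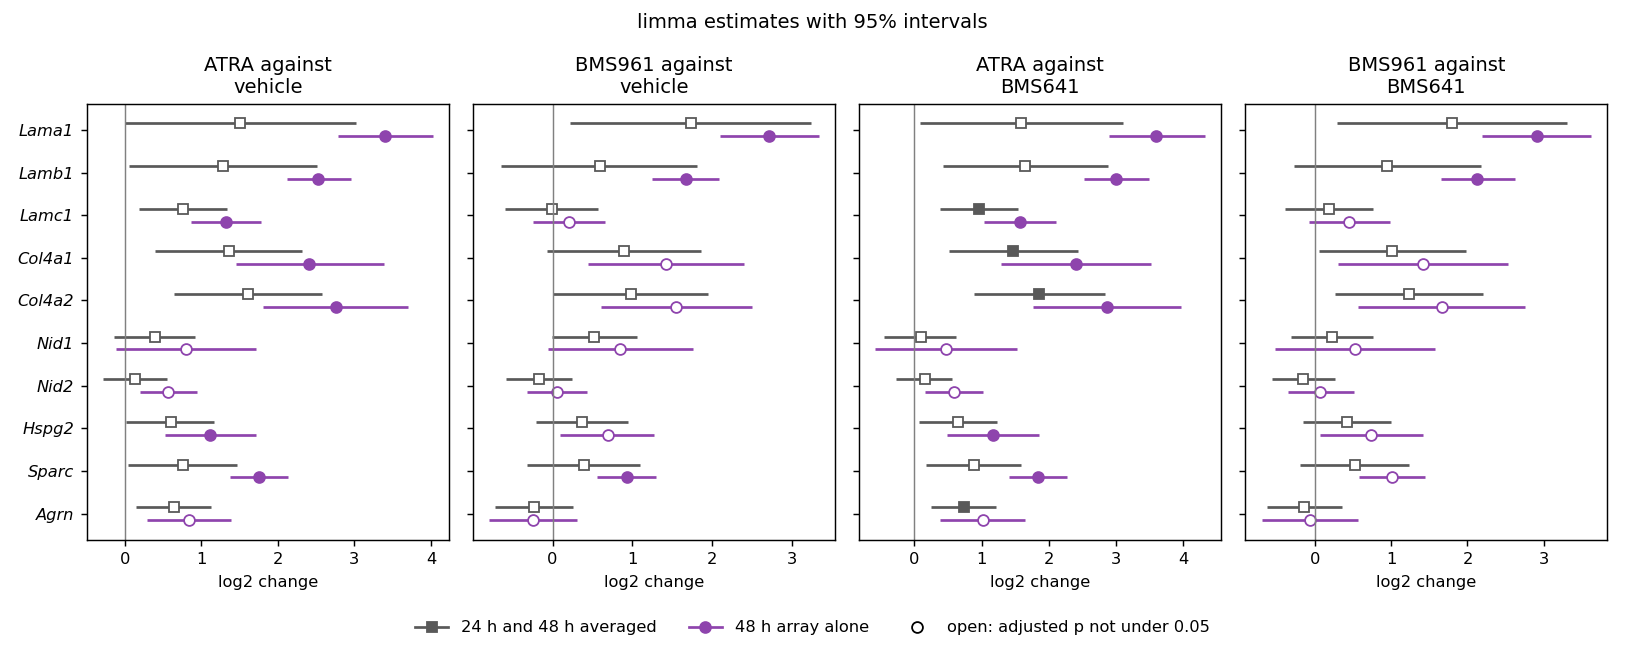
limma estimates (log2 change, with 95% intervals) of the 10 genes for ATRA and BMS961 against vehicle and against BMS641, from the fit that averages 24 h and 48 h (grey squares) and from the fit of the 48 h array alone, chosen after seeing the data (purple circles); filled symbols have an adjusted p under 0.05, and each panel has its own axis. Against vehicle no member is filled in the averaged fit, while 7 are for ATRA and 3 for BMS961 in the 48 h fit; in the averaged fit 4 are filled, all for ATRA against BMS641.

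Against BMS641, the ligand with the fewest changed genes, the question was whether a difference between ligands held at the same time. ATRA and BMS641 were both used at 1 µM. In the planned fit 4 members were higher in late ATRA than in late BMS641, where 7.81% of all genes were called higher and 6.98% lower: Lamc1 by 0.96 ± 0.26 (limma adjusted p = 0.0323), Col4a1 by 1.47 ± 0.44 (adjusted p = 0.0437), Col4a2 by 1.86 ± 0.44 (adjusted p = 0.0183) and Agrn by 0.73 ± 0.22 (adjusted p = 0.0496). With the array set as a block none of the 4 passed, and Agrn turned to -0.11 (adjusted p = 0.921). Leaving out the ATRA array at 24 h gave 8 calls, leaving out BMS641 at 24 h gave 1 (Col4a2), and leaving out the 48 h array of ATRA or of BMS641 gave none. The 24 h levels of ATRA and BMS641 were 6.62 and 7.04 for Lama1, 8.21 and 7.91 for Lamb1, and 9.93 and 9.59 for Lamc1, so no laminin chain was 2-fold apart at that time.

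At 48 h alone 8 members were at least 2-fold higher with ATRA than with BMS641 (5.34% of all genes), namely all but the nidogens, and 5 were with BMS961 (1.61%), namely Lama1, Lamb1, Col4a1, Col4a2 and Sparc. With BMS753, at the same dose as BMS641, none was (0.441%), and the closest was Col4a2 at 1.99-fold. In the 48 h fit, with the same limits, 7 members passed as higher with ATRA than with BMS641 (5.36% of all genes higher, 1.97% lower), led by Lama1 at 3.60 ± 0.33 (12.2-fold, adjusted p = 0.00012) and Lamb1 at 3.0 ± 0.22 (8.02-fold, adjusted p = 2.83e-05). With the array set as a block 3 of them passed, where 1.57% of all genes were called higher and 0.356% lower. They were Lama1 at 3.52 (limma adjusted p = 0.00346), Lamb1 at 2.71 (adjusted p = 0.000996) and Sparc at 1.84 (adjusted p = 0.00839). With the block Col4a1 was at 1.21 (adjusted p = 0.276), Col4a2 at 1.73 (adjusted p = 0.133) and Lamc1 at 0.99 (adjusted p = 0.0699). BMS961 against BMS641, all within 1 set, had Lama1 higher by 2.91 ± 0.33 (7.50-fold, adjusted p = 0.00314) and Lamb1 by 2.13 ± 0.22 (4.39-fold, adjusted p = 0.00242), where 0.241% of all genes were called higher and 0.015% lower. Sparc was at 1.01 ± 0.20 (adjusted p = 0.0667, and 0.0424 with the block).

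In the planned fit of BMS961 late against BMS641 late no member was called (0.637% of all genes higher, 0.557% lower), and 3 were higher by unadjusted p, as were 5.28% of all genes. BMS753 against BMS641 gave no member at either p, late or at 48 h, with 0% of all genes called; by unadjusted p 2.38% were higher and 1.68% lower late, and 1.52% and 1.34% at 48 h. Its 48 h estimates had 95% intervals from -0.27 to 1.16 for Lama1, -0.66 to 0.31 for Lamb1 and -0.10 to 2.08 for Col4a2. Differences of 2-fold lay within those of Lama1 and Col4a2. These intervals compare single arrays in the fit chosen after seeing the data, so that of Lamb1 does not exclude a 2-fold difference. In the planned late fit the interval of Lamb1 ran from -1.35 to 1.1, and 2-fold differences lay within it. At 2 h 3 members were at least 2-fold higher with ATRA than with BMS641 (1.12% of all genes), namely Col4a1, Col4a2 and Nid1, with no test. On vehicle replicate 1 Col4a1 and Col4a2 were likewise at least 2-fold above replicate 2 (1.56% of all genes).

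Whether the chains of a molecule moved together was described over the 18 arrays, for 5 pairs and with no test, since arrays share ligands, sets and times. Col4a1 and Col4a2 had a Pearson r of 0.98 and a Spearman rho of 0.81. Without the 48 h arrays of ATRA and BMS961, the farthest from the median, r was 0.92 over 16 arrays. Among the 13 arrays outside the ATRA set it was 0.95, and 0.87 when BMS961 at 48 h was also left out. Their changes from vehicle differed by no more than 0.39 on any array. This is the pair whose start sites and window overlap are printed above.

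The laminin chains paired less evenly. Lama1 and Lamb1 had an r of 0.91 and a rho of 0.29, and without the 48 h arrays of ATRA and BMS961 r was -0.08, so their correlation rests on those arrays. Lama1 and Lamc1 had an r of 0.73 and a rho of 0.30, and r was -0.06 without them. Lamb1 and Lamc1 had an r of 0.88 and a rho of 0.61, and r stayed at 0.78 without them. Among the 13 arrays outside the ATRA set that pair had 0.81, and -0.01 when BMS961 at 48 h was left out. Nid1 and Nid2 had an r of 0.39 and a rho of 0.38, and an r of 0.31 without ATRA at 2 h and BMS961 at 48 h, the farthest arrays there.

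**Figure D4:**
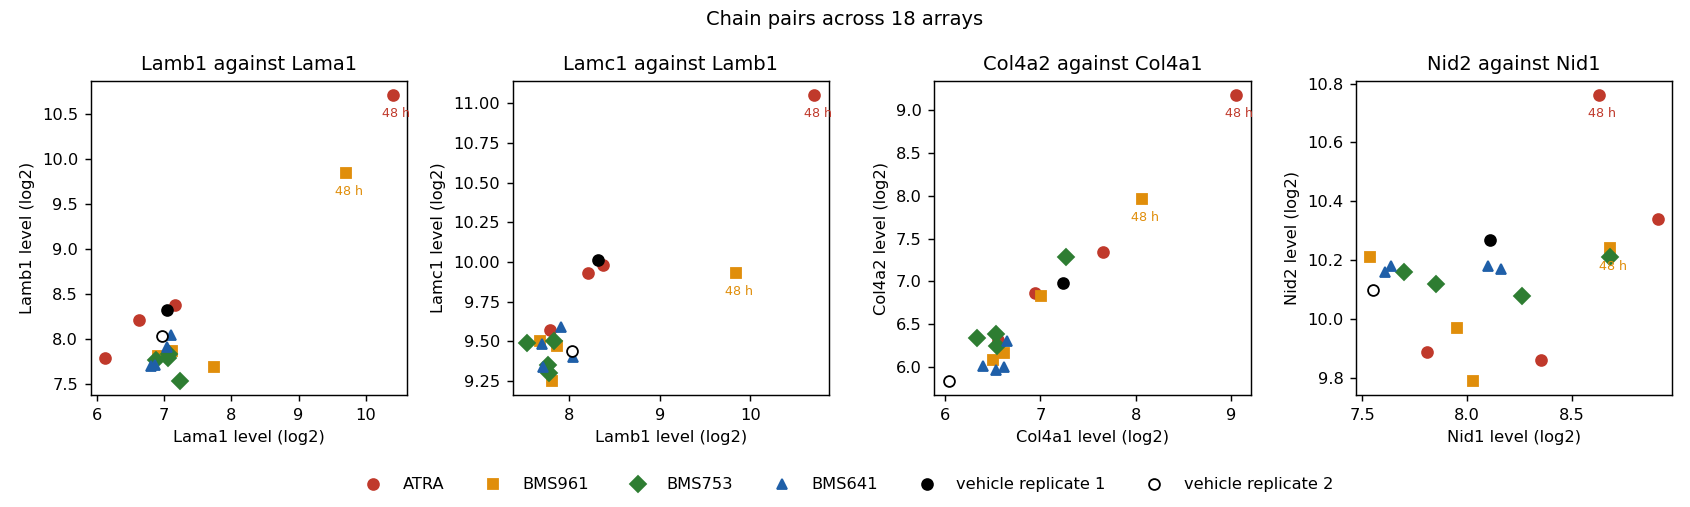
Levels (log2) of chain pairs, Lamb1 against Lama1, Lamc1 against Lamb1, Col4a2 against Col4a1 and Nid2 against Nid1, with 1 point for each of the 18 arrays and the 48 h arrays of ATRA and BMS961 marked. The collagen IV points run along a line over their whole range (r 0.98), whereas Lama1 and Lamb1 are both high on the 48 h arrays of ATRA and BMS961 alone and the other arrays form a cloud (r -0.08 without them).

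Other genes of the same structures were counted by list, and with the array set as a block no gene of the lists of laminin chains, collagen IV chains, basement membrane proteins, receptors, collagen folding or endoderm markers was called for late ATRA, against vehicle or against BMS641. Over all genes, 0.542% were called higher and 0.336% lower against vehicle with that block, and 0.0451% and 0.0201% against BMS641. Without the block 3.31% were called higher and 1.4% lower against vehicle in late ATRA, and 6.77% and 2.12% in the 48 h fit. Of 7 other laminin chains none was called for late ATRA against vehicle in the planned fit (median 0.27, and -0.02 with the block). Lamb2 was called in another planned comparison without the block. At 48 h 2 passed, Lama4 (1.54 ± 0.14, adjusted p = 9.13e-05) and Lamb2 (1.25 ± 0.29, adjusted p = 0.0212). With the block Lama4 was at 1.60 (adjusted p = 0.00026) and Lamb2 at 0.91 (adjusted p = 0.0752). Lama4 had 6.04 at 48 h of ATRA, 4.46 to 4.70 at its earlier times, and 4.45 and 4.56 on the vehicle arrays, whereas at 48 h of BMS961 it had 4.64. None of the 4 other collagen IV chains was called in either fit: the largest late changes were -0.21 for Col4a4 and -0.05 for Col4a5, and the median was -0.02 in the planned fit and -0.22 at 48 h.

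Of 16 other basement membrane proteins 3 were called in late ATRA against vehicle: Fbln1 (fibulin) at 1.49 ± 0.24 (adjusted p = 0.00735), Tinagl1 at 0.93 ± 0.22 (adjusted p = 0.0403), and Pxdn, the peroxidase that crosslinks collagen IV, at 1.47 ± 0.37 (adjusted p = 0.0448). With the block Fbln1 was at 1.15 (adjusted p = 0.0553) and Tinagl1 at 0.62 (adjusted p = 0.304), and Pxdn had an adjusted p of 0.269. At 48 h 5 passed, with Col18a1 (0.96) and Npnt (1.36) besides, and Pxdn at 2.38 ± 0.29 (adjusted p = 0.000519); with the block 4 did, without Tinagl1. Pxdn had 6.29, 6.36, 7.21 and 9.03 at 2, 6, 24 and 48 h of ATRA and 7.36 at 48 h of BMS961, against 6.82 and 6.48 on the vehicle arrays. Of 12 receptors 1 was called in late ATRA, Dag1 (dystroglycan, a laminin receptor), at 0.77 ± 0.17 (adjusted p = 0.0317), and at 0.57 with the block (adjusted p = 0.25). At 48 h Itga3 passed besides, and with the block Dag1 alone did. None of the genes of these 4 lists was called for BMS961 against vehicle, late or at 48 h, without the block. With it Fbln1 was called late, at 1.39 (adjusted p = 0.00901), and Fbln1, Tinagl1 and Tgfbi passed in the 48 h fit.

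Of 11 genes of collagen folding and crosslinking 3 were called in late ATRA against vehicle: Serpinh1, the collagen chaperone, at 1.00 ± 0.25 (adjusted p = 0.0436), P4ha2, a prolyl hydroxylase, at 1.00 ± 0.25 (adjusted p = 0.0465), and the lysyl hydroxylase Plod1 at 0.95 ± 0.23 (adjusted p = 0.0425). The vehicle arrays had 9.03 and 8.12 for Serpinh1, 6.49 and 6.48 for P4ha2 and 7.72 and 7.00 for Plod1, and with the block these genes were at 0.55, 1.00 and 0.59 (adjusted p = 0.294, 0.22 and 0.314). In the 48 h fit 6 genes of the list passed with ATRA, with and without the block, among them P4ha1 (1.33 without it) and P4ha2 (1.56 either way). Both also passed with BMS961, P4ha1 at 1.26 ± 0.23 (adjusted p = 0.0271, and 0.0344 with the block) and P4ha2 at 0.75 ± 0.16 (adjusted p = 0.0479, and 0.0487 with the block). Serpinh1 joined them with the block, at 1.52 (adjusted p = 0.00627), and P4ha1 alone passed without vehicle replicate 2. P4ha1 had 9.66 at 48 h of ATRA, 9.60 at 48 h of BMS961, 8.93 at 48 h of BMS753 and 8.57 at 48 h of BMS641, against 8.14 and 8.52 on the vehicle arrays.

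Of the marker lists, that of parietal endoderm was highest on the same 48 h arrays as the basement membrane genes. The part of cell types in the result was not tested. For ATRA against vehicle 3.31% of all genes were called higher late. In the 48 h fit 6.77% were, and 5.31% with the block. Of 10 parietal endoderm markers 6 were called in late ATRA against vehicle (median 1.81), 7 without vehicle replicate 1 (median 2.14), and none without vehicle replicate 2 or with the block (median 1.39). The vehicle arrays were apart for several of them, at 9.52 and 6.92 for Srgn, 7.26 and 6.28 for Gata4 and 8.30 and 7.61 for Sox7. In the 48 h fit 9 passed, all but Thbd, with the block and without either vehicle array too. Their mean level was 9.08 at 48 h of ATRA, 8.14 at 48 h of BMS961, 6.56 at 48 h of BMS753 and 6.07 at 48 h of BMS641, against 6.68 and 5.97 on the vehicle arrays. The mean of the 10 basement membrane genes on the same arrays was 9.79, 9.02, 8.25 and 7.93, against 8.31 and 7.76. At 24 h the marker mean already stood at 7.12 with ATRA and 6.84 with BMS961, while the basement membrane mean, at 8.09 and 8.07, lay between the vehicle arrays. Gata6, a transcription factor of primitive endoderm, had 8.41, 7.83, 8.52 and 11.30 with ATRA and 6.69, 7.25, 9.42 and 10.93 with BMS961, against 7.08 and 6.03 on the vehicle arrays. In late BMS961 against vehicle Gata6 was the 1 parietal marker called in the planned fit (0.818% of all genes higher). Krt19 had 5.74 at 48 h of BMS961, below both vehicle arrays (5.97 and 6.63).

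Of 10 visceral endoderm markers none was called in late ATRA against vehicle, and 2 passed in the 48 h fit, Cubn and Rbp4, of which Cubn alone did with the block. Their mean was 6.28 at 48 h of ATRA and 5.84 at 48 h of BMS961, against 6.08 and 5.41 on the vehicle arrays. This mean joins unlike genes: Cubn had 9.07 and 7.50 on these 48 h arrays, against 6.44 and 4.63 on vehicle. Afp had low levels, at 4.25 and 4.45, against 4.48 and 4.29. Against late BMS641 4 were called higher in late ATRA without the block (7.81% of all genes): Apoe, Cubn, Rbp4 and Cer1. With the block Apoe was at -0.02. In late BMS961 Apoe fell against vehicle, by 1.41 (adjusted p = 0.0225), and was at -0.92 with the block (adjusted p = 0.0268); its vehicle arrays had 11.96 and 10.99. Of 8 embryonal carcinoma markers 4 fell in late ATRA against vehicle (1.4% of all genes): Sox2, Utf1, Zfp42 and Tdgf1. Of these Utf1 (-0.97) and Zfp42 (-1.56) were called with the block (0.336% of all genes). The others, at 48 h of ATRA against the mean of vehicle, were Pou5f1 at -0.35, Lin28a at -0.56, Nanog at -0.01 and Dppa5a at 0.0. Nanog had 12.07 and 11.08 on the vehicle arrays. Utf1 also fell in late BMS961, by 0.93 (adjusted p = 0.00252, and 0.0043 with the block). Their mean was 10.77 at 48 h of ATRA, 10.86 at 48 h of BMS961, 11.37 at 48 h of BMS753 and 11.43 at 48 h of BMS641, against 11.56 and 11.32 on the vehicle arrays. Of 8 fibroblast markers, a cell type that also makes these matrix genes, Pdgfrb was called higher in late ATRA, at 1.21, and at 1.14 with the block (adjusted p = 0.0171). Thy1 of the same list was called in another planned comparison and went the other way. At 48 h it stood at -0.52 with ATRA and -0.66 with BMS961 against the mean of vehicle. The list mean lay between 4.81 and 5.27 on all 18 arrays. Several of its genes had low levels, such as 3.67 for Dcn, 3.11 for Lum and 3.61 for Postn on vehicle replicate 1.

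**Figure D5:**
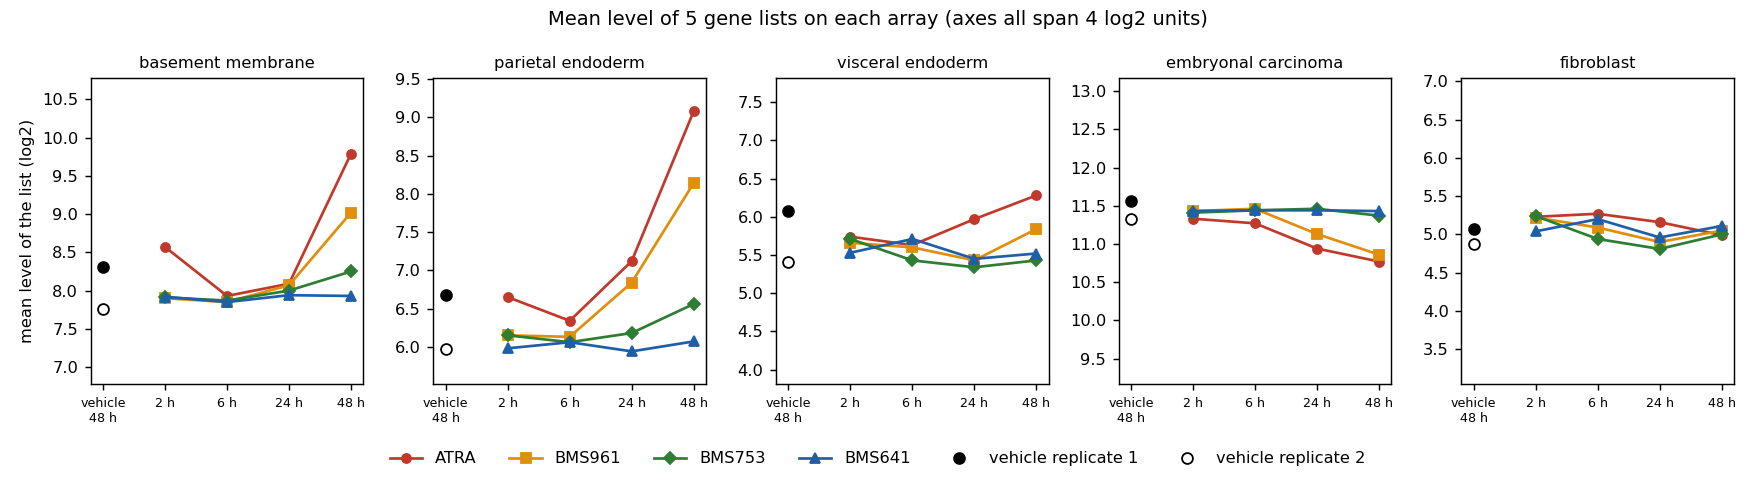
Mean level (log2) on each array of the 10 basement membrane genes and of 4 marker lists, with the vehicle arrays at the left and lines joining the single arrays of a ligand from 2 to 48 h; all panels span 4 log2 units. Basement membrane genes and parietal endoderm markers are highest at 48 h of ATRA (9.79 and 9.08) and next at 48 h of BMS961 (9.02 and 8.14), and fibroblast markers stay between 4.81 and 5.27.

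The 5 other genes whose courses were most like the average course of Lama1, Lamb1, Lamc1, Col4a1 and Col4a2 were found by Pearson r over the 18 arrays, after each chain was centred and scaled. They were 2210409E12Rik (r 0.974), Nxf7, of the RNA export factor family (0.972), the protocadherin gene Pcdh19 (0.967), the prolyl hydroxylase gene P3h2 (0.965) and Pcbd1, an enzyme of tetrahydrobiopterin recycling (0.963). Without the 48 h arrays of ATRA and BMS961 these were 0.83, 0.87, 0.76, 0.71 and 0.72. Nxf7 had 7.60 at 48 h of ATRA and 5.31 at 48 h of BMS961, against 4.61 and 3.36 on the vehicle arrays, while P3h2 had 5.73 and 5.25, against 4.47 and 4.31. Of the members outside that average, Hspg2 had an r of 0.951, the 13th highest of all genes, and Sparc 0.916. Nid2 had 0.708, Agrn 0.636 and Nid1 0.626. Without the same 48 h arrays Hspg2 had 0.91 and Sparc 0.34, while Nid2 had 0.23, Agrn 0.76 and Nid1 0.63. The order of Sparc, Agrn and Nid1 thus rests on those arrays.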

How the data were processed

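Total RNA of F9 cells was labelled with biotin and hybridized to Affymetrix whole-transcript arrays. The authors deposited log2 levels for 35556 probe sets on 18 arrays, made by RMA in Affymetrix Expression Console 1.1 per the submitters' processing notes. Scan dates, detection calls and the set of arrays normalized as 1 run are not given in the sources used. RMA forces the arrays to like distributions, and levels were used as deposited. A platform annotation gave 21789 probe sets 1 gene symbol, 1621 several and 12146 none, and 21698 were matched by Entrez number. Of several probe sets of a gene (999 genes) the brightest on average was kept. No dim genes were removed, and 19938 were tested.

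Groups were taken from the labels. A linear model with 9 group means, plus steps between 2 and 6 h and between 24 and 48 h common to the ligands, was fitted in limma 3.58.1 under R 4.3.3 to the 18 arrays, with 7 residual degrees of freedom and an eBayes prior of 4.55; the 48 h fit had 7 and 4.33. P-values were adjusted by Benjamini-Hochberg within each comparison. The fit was tested on simulated data. Tables and figures were made with Python 3.11.15, pandas 2.3.3, numpy 2.4.6 and matplotlib 3.10.9. Other settings were the array set as a block, quantile normalization, arrays centred on their median, no common steps, trend and robust eBayes, genes above the median level, averaged probe sets, and leaving out each array; the 48 h fit, and the block and single vehicle arrays for the gene lists, were added after seeing the data.

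The members and lists were chosen with earlier results of these data known. Genes to be named were all 10 members and list genes called in a planned comparison (otherwise the 2 with the largest late ATRA change). The 5 genes nearest to the mean course of the laminin and collagen IV chains were added. List genes called in a planned comparison but not described above were Smoc1, Plod2, Colgalt1, Ppib, Plat, Pth1r, Snai1 and Pdgfra. Some genes called only in the 48 h fit are named besides. Promoter windows came from RefSeq.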

Additional observations from a re-analysis of the deposited data

Results flagged for a closer look

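Several members lay on opposite sides of the vehicle pair at 24 h and 48 h of the same ligand, below both vehicle arrays at 24 h and above both at 48 h. These are single arrays, and the difference between the times was not tested for them. With ATRA this held for Lama1, Sparc and Nid2, whose 48 h levels were 3.40, 1.76 and 0.57 above the mean of the vehicle arrays (log2). With BMS961 it held for Lamb1 (1.67) and Sparc (0.93), and with BMS753 for Sparc (0.27). Sparc thus crossed the vehicle levels with 3 of the 4 ligands, and its vehicle arrays differed by -0.01.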

How the results depend on the processing

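In the fit that averages 24 h and 48 h, no member was called in 14 of the 15 comparisons, and these counts of 0 held under quantile normalization, centring, trend and robust eBayes, the stricter gene set, the mean of probe sets, no common steps and the array-set block. For ATRA late against BMS641 late, 4 members were called. This count was 0 with the array set as a block, 2 after quantile normalization, 1 with arrays centred and 2 without common steps. Agrn turned to -0.11 with the block, which takes off the gap between the vehicle arrays (0.83 for Agrn). The cause of that gap was not tested. Leaving out single arrays gave 0 to 6 members for ATRA late against vehicle, 0 to 1 for ATRA early, 0 to 8 for ATRA late against BMS641 late and 0 to 5 for ATRA late against early, and 0 in all other comparisons. With the 48 h array in place of late the counts were 7 for ATRA against vehicle (9 and 6 without vehicle replicate 1 and 2, 6 with the block, 8 after quantile normalization) and 3 for BMS961 against vehicle (6, 3, 6 and 3). They were 7 for ATRA and 2 for BMS961 against BMS641 (with the block 3 and 3, after quantile normalization 6 and 3). Against a ligand's own earlier arrays they were 7 for ATRA and 3 for BMS961 (with the block 9 and 5, after quantile normalization 7 and 3). Without the arrays farthest from the median, r turned to -0.08 for Lama1 with Lamb1 and to -0.06 for Lama1 with Lamc1, and was 0.92 for Col4a1 with Col4a2. After quantile normalization 0 members, not 1, lay above both vehicle arrays at 48 h of BMS641. Of single members' values under the planned settings, 1428 kept direction and call, 178 without a call changed sign, 21 gained and 22 lost a call, and 1 called value reversed. The share of all genes called was not kept for fits without an array, so their counts have no background. An r within the set of 5 arrays was not run, since it holds fewer than 6. No paired analysis was possible because only the vehicle arrays carry replicate numbers, and the ligand groups hold 1 array each. With single arrays per ligand and time, repeated cultures were not measured, and the vehicle pair limits Col4a1, Col4a2, Agrn and Hspg2 most.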
